A study of Mus musculus with 8 samples.

Results

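The sterol biosynthesis pathway and its control by SREBP2 were followed in mouse OT-I CD8+ T cells, whose transgenic receptor recognises the ovalbumin peptide SIINFEKL. The members were 29 genes chosen by symbol from the 41730 rows of the count table: 21 enzymes of mevalonate, isoprenoid and sterol synthesis in pathway order, and 8 genes of SREBP2 and its regulators. All 29 were in the table and all 29 passed the filter on low counts, so no member was left out of testing. The T cells had been cultured with dendritic cells grown from bone marrow of mice without the liver X receptors (LXR) and loaded with that peptide, and were then sorted by flow cytometry for RNA sequencing. One group of 4 libraries came from cultures with DMSO (control) and the other group of 4 from cultures with 2 µM RGX-104, a synthetic LXR agonist. LXR-/- dendritic cells and OT-I T cells were common to both groups, and the labels give the LXR deletion for the dendritic cells only.

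Cells build cholesterol from acetyl-CoA through mevalonate, isoprenoid diphosphates, squalene and lanosterol. SREBP2, encoded by Srebf2, is a membrane-bound transcription factor that switches on most of these enzymes. When sterols are scarce, SCAP escorts it from the endoplasmic reticulum to the Golgi, where the proteases encoded by Mbtps1 and Mbtps2 release the active fragment, and when sterols are plentiful the INSIG proteins hold SCAP back. LXR senses oxysterols and is known to drive cholesterol efflux and fatty acid synthesis, and activated T cells need sterol synthesis to make membrane as they divide.

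Library totals ranged from 33942140 to 37714355 counts in control and from 30642316 to 35244624 counts in RGX-104 libraries, and the members had between 580 and 19663 counts in any library. The agonist response was present in all 4 treated libraries: the efflux transporter gene Abca1 was at 1.38 to 2.09 CPM (the count scaled by library size) in control and at 118 to 132 CPM with RGX-104, and Abcg1 at 41.6 to 45.1 and 156 to 163 CPM. Cd8a, which marks the sorted cells, was at 877 and 809 CPM in the 2 groups, and the CD8 T cell markers with it summed to 2606 to 2722 CPM in the controls and 2504 to 2557 CPM with RGX-104. Cd2, also on that list, had at most 6 counts in any library and was not tested. Of the 9 CD8 T cell markers tested 3 were lower, Cd8a, Cd8b1 and Cd3e (log2 changes of -0.12, -0.12 and -0.14; edgeR adjusted p = 0.00273, 0.00264 and 0.00295), and 1, Lck, was higher. By contrast Lyz2, Csf1r, Spi1, Tyrobp and Fcer1g, from the macrophage and monocyte markers, had at most 13 counts in any library. Tyrobp is also a marker of NK cells. Of the 13 dendritic cell markers 11 were tested, of which Cd74, Cd80 and Ccl22 were higher and Ccr7 was lower with RGX-104. Their summed level was 810 to 856 CPM in the controls and 799 to 820.2 CPM with RGX-104, but most of it was Ccr7, which T cells also express, and without Ccr7 the sum was 153 to 162 CPM and 167 to 185 CPM, higher in all 4 RGX-104 libraries. Clec9a had at most 1 count. Of the 9 macrophage and monocyte markers 2 were tested, of which Ctss was higher and Cd68 was not called, and the 9 summed to 30.8 to 34.9 and 38.1 to 41.5 CPM. The part of these markers in the results below was not tested. In bulk samples fewer cells of a type and less RNA per cell cannot be told apart.

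With RGX-104, 8 members rose and 0 fell, by the quasi-likelihood test of edgeR at an adjusted p under 0.05. The same test called 8.95% of all 13290 tested genes, 4.82% as higher and 4.13% as lower. Every rise was small, between 7.69% and 26.2%. The genes that rose were Acat2, Pmvk and Mvd of the mevalonate arm and Lss, Tm7sf2, Nsdhl, Sc5d and Dhcr7 of the stretch from lanosterol to cholesterol. That stretch is counted here from Lss, which forms lanosterol. At an unadjusted p under 0.05 there were 11 members higher and 1 lower, DESeq2 called 8 and 0, and limma-voom called 9 and 0. The 4 RGX-104 libraries lay above the 4 control libraries in 10 members and below them in 1, Srebf2, where the same held for 7.07% and 7.45% of all tested genes. The median log2 change was 0.05 over the members and 0.001 over all tested genes.

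**Figure D1:**
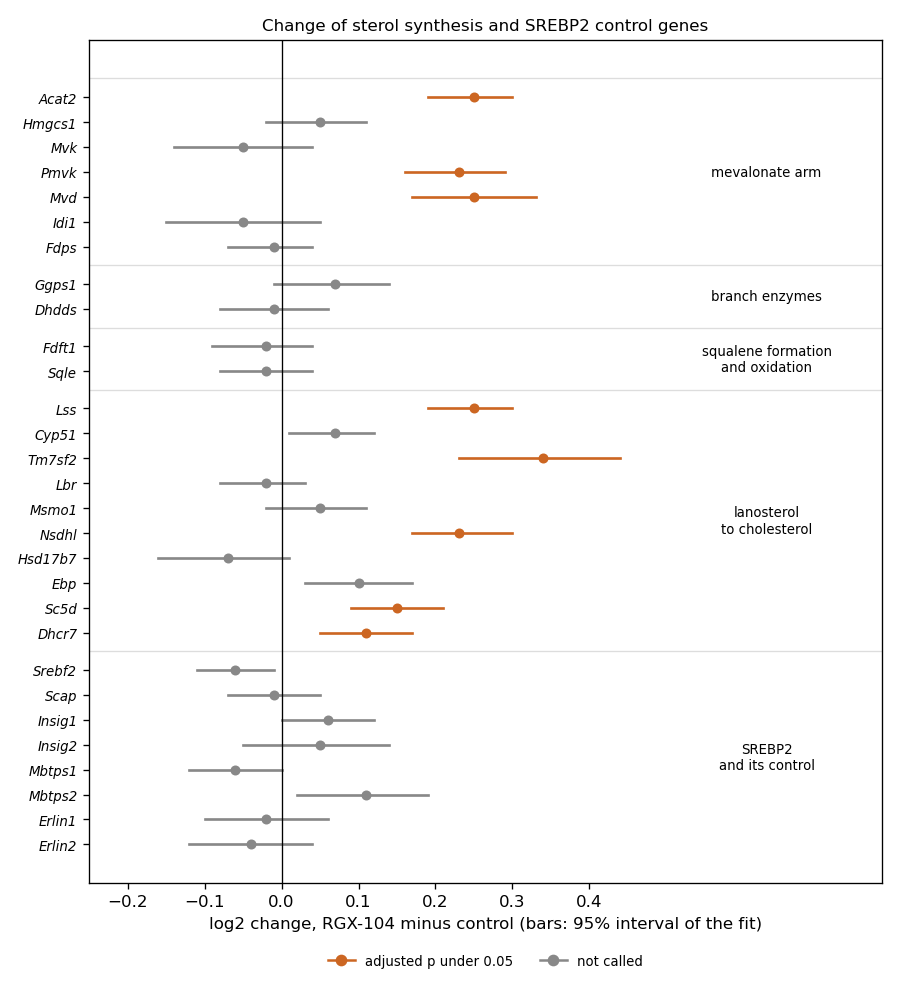
Log2 change of each member (RGX-104 minus control, x axis) in pathway order, with the 95% interval of the edgeR fit from 4 libraries in each group. Orange marks the 8 members called at an adjusted p under 0.05, all of them to the right of 0, and grey the 21 others, whose intervals lie between -0.16 and 0.19.

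The calls are given here by step, and a difference between steps was not tested. Over all tested genes 4.82% were called higher and 4.13% lower. In groups of 2 or 8 genes 0 calls is near that background, so it is not read as a result about those steps. In the mevalonate arm 3 of 7 members rose, among the 10 enzymes from lanosterol formation to cholesterol 5 rose, and 0 fell in either. The enzymes that form and oxidise squalene had 0 of 2 called and the branch enzymes Ggps1 and Dhdds 0 of 2, with 0 at an unadjusted p under 0.05 and 0 by DESeq2 or limma-voom. SREBP2 and its regulators had 0 of 8 called by edgeR, DESeq2 or limma-voom, with 1 higher and 1 lower at an unadjusted p under 0.05. Summed over its 10 genes, the lanosterol to cholesterol stretch was at 1633 ± 22.4 CPM in the controls and 1735 ± 11.0 CPM with RGX-104 (SD, n = 4 each), a difference of 6.27%. The mevalonate arm summed to 1148 ± 30.0 and 1213 ± 31.7 CPM, SREBP2 and its regulators to 1135 ± 6.25 and 1117 ± 16.4 CPM.

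Regulatory DNA just upstream of a start site is shown for 6 members that the results turn on: Mvd, Lss, Tm7sf2 and Nsdhl, which rose, and Hmgcs1 and Srebf2, which were not called. Each run is the 200 bases before a RefSeq start site on GRCm38.p6, read in the direction of the gene. For Lss that start site lies downstream of the first base of the gene, 76531565, so the end of its run is inside the gene. Capitals mark the CCAAT box, the site of NF-Y, which SREBPs commonly work beside, and the sterol regulatory element core TCACNCCAC, on either strand (ATTGG is CCAAT on the other strand).
Mvd (chr8:122443423-122443622, minus strand): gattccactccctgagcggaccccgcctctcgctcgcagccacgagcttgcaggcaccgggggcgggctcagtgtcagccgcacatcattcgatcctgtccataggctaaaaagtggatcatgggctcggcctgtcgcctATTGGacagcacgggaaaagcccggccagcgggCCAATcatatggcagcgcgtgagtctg
Lss (chr10:76531405-76531604, plus strand): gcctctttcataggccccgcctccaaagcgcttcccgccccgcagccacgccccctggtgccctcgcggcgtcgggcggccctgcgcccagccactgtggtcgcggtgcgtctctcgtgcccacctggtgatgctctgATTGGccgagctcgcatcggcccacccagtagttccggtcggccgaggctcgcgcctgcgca
Tm7sf2 (chr19:6067851-6068050, minus strand): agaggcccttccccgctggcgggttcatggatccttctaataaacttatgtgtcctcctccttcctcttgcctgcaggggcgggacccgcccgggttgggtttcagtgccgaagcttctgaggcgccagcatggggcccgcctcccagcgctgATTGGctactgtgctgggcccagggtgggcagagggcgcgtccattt
Nsdhl (chrX:72918321-72918520, plus strand): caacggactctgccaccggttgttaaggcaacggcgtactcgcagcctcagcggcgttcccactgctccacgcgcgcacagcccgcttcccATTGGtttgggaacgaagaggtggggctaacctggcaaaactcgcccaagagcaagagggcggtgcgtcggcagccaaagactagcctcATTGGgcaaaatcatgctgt
Hmgcs1 (chr13:119690151-119690350, plus strand): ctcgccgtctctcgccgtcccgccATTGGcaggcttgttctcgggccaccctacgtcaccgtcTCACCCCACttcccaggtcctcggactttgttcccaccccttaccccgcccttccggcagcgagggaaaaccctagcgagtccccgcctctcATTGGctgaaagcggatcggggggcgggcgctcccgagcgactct
Srebf2 (chr15:82147069-82147268, plus strand): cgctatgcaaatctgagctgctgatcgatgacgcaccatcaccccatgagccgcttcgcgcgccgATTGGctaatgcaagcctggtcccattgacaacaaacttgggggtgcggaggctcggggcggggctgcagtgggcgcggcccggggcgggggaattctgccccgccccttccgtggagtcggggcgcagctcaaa
Each of the 6 stretches holds at least 1 CCAAT box, and only that of Hmgcs1 holds the sterol element core. Only exact matches were marked, so the other stretches may hold sterol elements with other letters. That of Srebf2 holds tcaccccat, which differs from the core at its last base.

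Promoter windows from 250 bases before to 50 bases after the start site were found for 25 of the 29 members, in the RefSeq table of GRCm38.p6. Erlin2, Fdft1, Fdps and Sqle had no window there. The CCAAT box was present in 21 of the 25 (84.0%), against 42.9% of the 10359 tested genes with a window, and the Sp1 box GGGCGG in 22 (88.0%), against 65.6%. The sterol element core was present in 1 member, against 1.33% of tested genes. A direct repeat of AGGTCA with 4 bases between the copies (DR4), the arrangement that LXR binds, was searched with exact letters. It was in 0 members, in 0.0% of the tested genes with a window and in 0.015% of all windows. With so few matches anywhere, the 0 in members does not show that they lack LXR sites. CCAAT boxes stood in 7 of the 8 members that rose, Acat2 being the exception, and in 14 of the 17 others with a window. Both strands were searched and no motif contains another. Matches describe these letters in these windows and are not bound sites.

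The mevalonate arm begins with Acat2, the cytosolic thiolase that joins acetyl-CoA units. Acat2 was at 130.0, 130.2, 134 and 134 CPM in the control libraries and at 158, 157, 158 and 154 CPM in the RGX-104 libraries. The treated libraries were all higher, with no overlap. The rise was 18.7%, a log2 change of 0.25 ± 0.03 (SE; edgeR adjusted p = 4.20e-07). Acat2 lies on chromosome 17 from 12943042 to 12960725 (GRCm38). Its transcript shares a stretch of 1477 bases at 97.7% identity with its paralog Acat3, which had at most 46 counts in a library, and 445 bases at 98.7% with a transcript of Tcp1, whose log2 change was -0.05 ± 0.03 (edgeR adjusted p = 0.320). Reads of these genes could be shared.

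Hmgcs1, the synthase that condenses acetoacetyl-CoA with acetyl-CoA and a familiar SREBP2 target, was not called. It was at 484, 516, 533 and 524 CPM in the controls and at 515, 551, 547 and 514 CPM with RGX-104. The groups overlapped, with control replicate 1 the lowest of the 8, and the log2 change was 0.05 with a 95% interval of -0.02 to 0.11 (edgeR adjusted p = 0.382). Mevalonate kinase, encoded by Mvk, was likewise not called (means of 30.6 and 29.6 CPM; log2 change -0.05, interval -0.14 to 0.04).

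The enzymes that act next on phosphorylated mevalonate both rose. Pmvk, which adds the second phosphate, was at 103, 101, 103 and 102 CPM in the controls and at 115, 124, 123 and 115 CPM with RGX-104. RGX-104 replicates 1 and 4 were lower than replicates 2 and 3, yet all 4 lay above every control. Its log2 change was 0.23 ± 0.03 (SE; edgeR adjusted p = 1.26e-05). Mvd, the decarboxylase that yields isopentenyl diphosphate, was at 52.6, 49.6, 56.4 and 53.2 CPM in the controls and at 65.7, 64.4, 61.2 and 61.0 CPM with RGX-104. Groups did not overlap and the log2 change was 0.25 ± 0.04 (SE; edgeR adjusted p = 6.16e-05). Idi1, the isomerase after it, and Fdps, which builds farnesyl diphosphate, were not called, with log2 changes of -0.05 (interval -0.15 to 0.05) and -0.01 (interval -0.07 to 0.04). Fdps and Idi1 have near-identical gene models elsewhere in the annotation, so their counts are less certain. The same holds for Fdft1 (1249 bases at 97.4% identity), Ggps1 (903 bases at 97.2%) and Insig1 (189 bases at 98.9%), described below. Erlin2 shares short stretches with transcripts of many other genes.

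Farnesyl diphosphate is a branch point. Ggps1, which extends it for protein prenylation, was at 49.3 ± 0.960 CPM in the controls and 51.6 ± 2.53 CPM with RGX-104 (SD, n = 4 each). Dhdds, a subunit of the enzyme that makes dolichol chains, was at 71.9 ± 2.92 and 71.2 ± 0.907 CPM. Neither passed (edgeR adjusted p = 0.322 and 0.855).

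Commitment to sterols begins with squalene. Fdft1, squalene synthase, was at 88.6 ± 2.13 CPM in the controls and 87.2 ± 1.49 CPM with RGX-104 (SD, n = 4 each). It overlaps 774 exon bases of Ctsb on the opposite strand, and Ctsb itself fell by 0.14 on the log2 scale (edgeR adjusted p = 0.00144), so part of the Fdft1 count may be reads of Ctsb. Sqle, the squalene epoxidase, which is often rate-limiting, was at 203, 212, 216 and 221 CPM in the controls and at 212, 211, 210.4 and 206 CPM with RGX-104. All 4 treated values lay within the control range, and the interval of the log2 change, -0.08 to 0.04, excludes a rise of the size seen for Lss.

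Lss, the cyclase that folds the epoxide into lanosterol, was at 205, 208, 208 and 201 CPM in the controls and at 239.7, 247, 246 and 243 CPM with RGX-104. The 2 sets of values were tight and far apart. The rise was 18.6%, a log2 change of 0.25 ± 0.03 (SE; edgeR adjusted p = 2.79e-07). Lss lies on chromosome 10 from 76531565 to 76557139 (GRCm38), and the antisense gene that overlaps it, 4930483K19Rik, had at most 40 counts. Cyp51, the demethylase that acts on lanosterol, was at 414, 411, 422 and 433 CPM in the controls and at 448, 443, 433 and 435 CPM with RGX-104. Its treated libraries were all higher, but by 4.74%, and it did not pass (edgeR adjusted p = 0.122). Without control replicate 4, and with no scaling beyond library totals, it did (edgeR adjusted p = 0.0396 and 0.0419).

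**Figure D2:**
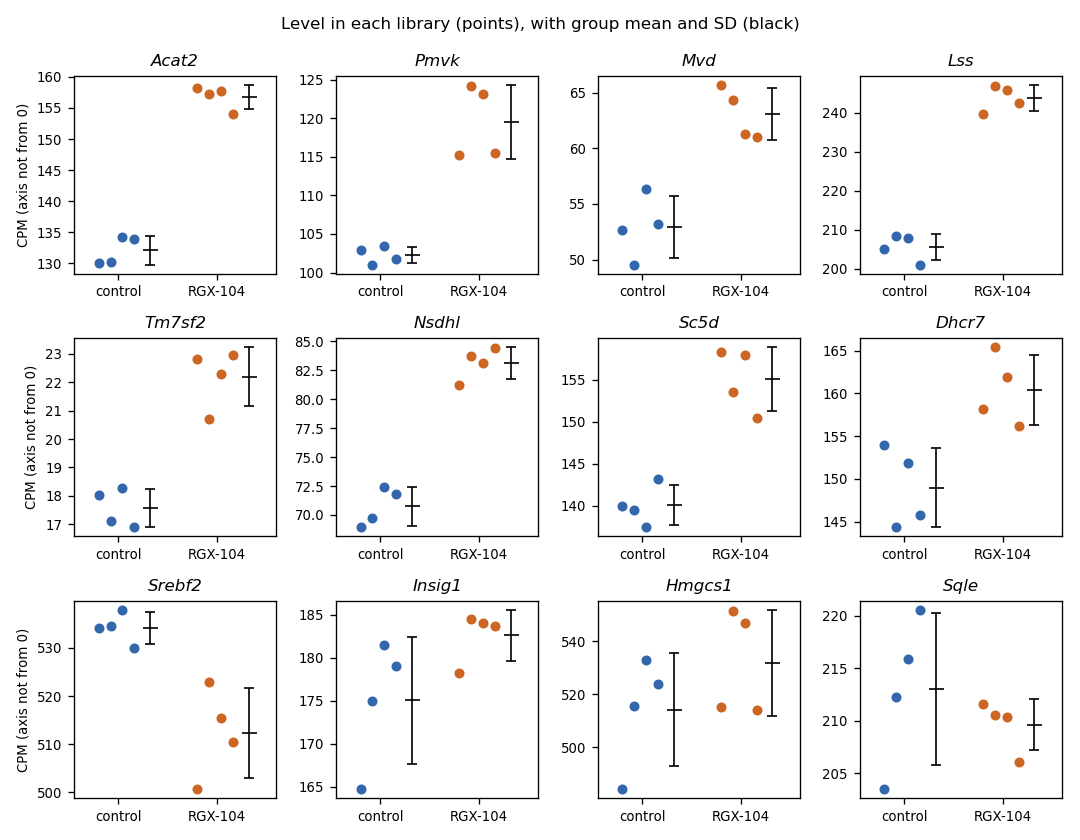
Level in CPM (y axis, not from 0) of 12 members in each of the 4 control (blue) and 4 RGX-104 (orange) libraries, with the group mean and SD in black. In the 8 members that rose the orange points all lie above the blue ones, in Srebf2 all below, and in Insig1, Hmgcs1 and Sqle the groups overlap.

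Sterol reduction after Cyp51 can be carried out by either of 2 related proteins, Tm7sf2 of the endoplasmic reticulum or Lbr, the lamin B receptor of the inner nuclear membrane. Tm7sf2 had the largest change of the 29 members. It was at 18.0, 17.1, 18.3 and 16.9 CPM in the controls and at 22.8, 20.7, 22.3 and 23.0 CPM with RGX-104. The groups stood apart, and the rise was 26.2%, a log2 change of 0.34 ± 0.05 (SE; edgeR adjusted p = 3.17e-05). Lbr was at 382, 392, 399 and 397 CPM in the controls and at 385, 395, 381 and 386 CPM with RGX-104, with overlap and a log2 change of -0.02 (interval -0.08 to 0.03). Tm7sf2 lies on chromosome 19 from 6062821 to 6067850 (GRCm38) and shares 532 exon bases with Vps51 on the same strand, so reads there can be assigned to either. Vps51 was not called (log2 change 0.06 ± 0.04, edgeR adjusted p = 0.365).

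A ratio of 2 genes within a library does not depend on how libraries are scaled, and such ratios were taken for 4 pairs of related genes. The pairs were chosen after the values were seen. The p-values of the ratios therefore only describe how the libraries separate and add no support to the changes above. For each library the count of Tm7sf2 was divided by that of Lbr. The ratio was 0.0472, 0.0436, 0.0458 and 0.0426 in control and 0.0593, 0.0524, 0.0586 and 0.0595 in RGX-104 libraries. All 4 treated ratios were higher, a mean log2 difference of 0.36 (exact permutation p = 0.0286, two-sided, the smallest that 4 against 4 can give, and 0.0571 after Benjamini-Hochberg adjustment over the 4 ratios). Per transcript length Tm7sf2 was the minor form, at 11.9 CPM per kb in control and 15.1 in RGX-104 libraries against 112 and 110.2 for Lbr.

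**Figure D3:**
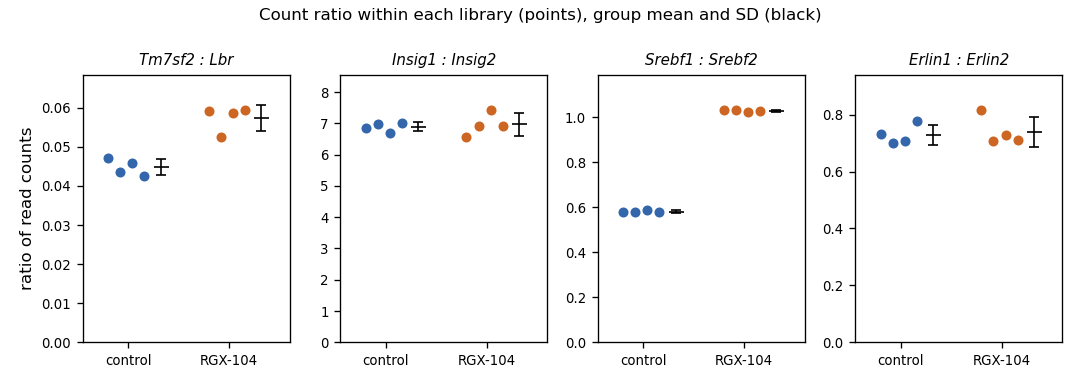
Ratio of read counts within each library (y axis, from 0) for 4 pairs of related genes, in 4 control (blue) and 4 RGX-104 (orange) libraries, with the group mean and SD in black. Treated libraries lie above control for Tm7sf2 to Lbr and for Srebf1 to Srebf2, and the groups overlap for Insig1 to Insig2 and Erlin1 to Erlin2.

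Removal of the remaining methyl groups of the sterol nucleus takes Msmo1, Nsdhl and Hsd17b7 in turn, and of these 1 rose. Nsdhl, the decarboxylating dehydrogenase, was at 69.0, 69.7, 72.4 and 71.8 CPM in the controls and at 81.2, 83.7, 83.1 and 84.4 CPM with RGX-104. No treated library fell within the control range, and the log2 change was 0.23 ± 0.03 (SE; edgeR adjusted p = 7.85e-06). The oxidase gene Msmo1, at 142 ± 7.66 and 146 ± 1.58 CPM, and the reductase gene Hsd17b7, at 39.2 ± 1.74 and 37.3 ± 1.53 CPM (SD, n = 4 each), did not pass (edgeR adjusted p = 0.443 and 0.319).

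The last steps shift and reduce double bonds. Ebp, the isomerase, was at 57.8, 54.0, 55.8 and 57.8 CPM in the controls and at 58.2, 60.9, 60.2 and 62.4 CPM with RGX-104. The groups did not overlap but the change of 7.15% missed the threshold (edgeR adjusted p = 0.0778). Ebp passed by limma-voom (adjusted p = 0.0355). By edgeR it passed with upper quartile scaling or library totals only (adjusted p = 0.0451 for each) and with the column number as a replicate block (0.03). Sc5d, the desaturase, was at 140.0, 139.5, 138 and 143 CPM in the controls and at 158, 154, 158 and 150.4 CPM with RGX-104, a log2 change of 0.15 ± 0.03 (SE; edgeR adjusted p = 0.00104). Treated values of Sc5d were all above the control values.

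Dhcr7, which reduces the sterol double bond in the final part of the pathway, was at 154, 144, 152 and 146 CPM in the controls and at 158, 165, 162 and 156 CPM with RGX-104. Its groups only just stood apart. The change was 7.69% (log2 0.11 ± 0.03, SE; edgeR adjusted p = 0.0231), and the call was lost without control replicate 2, RGX-104 replicate 2 or RGX-104 replicate 3 (edgeR adjusted p = 0.0728, 0.107 and 0.0787) and with 1 surrogate variable (0.0607).

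Srebf2 itself was not called. It was at 534, 534, 538 and 530.0 CPM in the controls and at 501, 523, 515 and 511 CPM with RGX-104. Treated libraries all lay below the controls, by a difference of -4.07% that did not pass (log2 -0.06, interval -0.11 to -0.01; edgeR adjusted p = 0.149). Its relative Srebf1, which encodes SREBP1 and is a known LXR target, was at 307 to 317 CPM in the controls and 517 to 539.9 CPM with RGX-104. The count of Srebf1 divided by that of Srebf2 was 0.581 ± 0.00527 in control and 1.03 ± 0.00471 in RGX-104 libraries (SD, n = 4 each), a log2 difference of 0.83 (exact permutation p = 0.0286, two-sided, and 0.0571 adjusted over the 4 ratios). An intron of Srebf2 on chromosome 15 holds the gene of miR-33, a small RNA known to repress Abca1, and its mature form is given here with the seed, bases 2 to 8, in capitals.
mmu-miR-33-5p (chr15:82198127-82198147, plus strand): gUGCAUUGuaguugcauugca
The row of Mir33 was at 0 counts in every library of this total RNA data set, which says nothing of the mature small RNA.

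The escort and the anchors of SREBP2 were not called. Scap was at 164, 163, 154 and 159 CPM in the controls and at 159, 159.8, 157 and 159 CPM with RGX-104, with a log2 change of -0.01 (interval -0.07 to 0.05). Insig1, itself an SREBP target, was at 165, 175, 181 and 179 CPM in the controls and at 178, 184, 184 and 184 CPM with RGX-104. Control replicate 1 was the lowest and the groups overlapped (log2 change 0.06, interval 0.00 to 0.12; edgeR adjusted p = 0.243). With 1 surrogate variable Insig1 was called higher (edgeR adjusted p = 0.0444). Insig2, the less sterol-responsive form, was at 24.0, 25.0, 27.1 and 25.6 CPM in the controls and at 27.1, 26.7, 24.7 and 26.5 CPM with RGX-104. The ratio of Insig1 to Insig2 was 6.89 ± 0.141 in control and 6.97 ± 0.354 in RGX-104 libraries (SD, n = 4 each), with overlapping groups (exact permutation p = 0.83, two-sided and also after adjustment).

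The proteases that cut SREBP2 and the erlins, which help restrain SREBP in the endoplasmic reticulum, were not called either. Mbtps1, the first protease, was at 128 ± 2.12 and 123 ± 3.98 CPM, and Mbtps2, the second, at 37.8 ± 1.68 and 40.7 ± 1.48 CPM (SD, n = 4 each; edgeR adjusted p = 0.267 and 0.104). Mbtps2 was called higher without control replicate 4 (edgeR adjusted p = 0.0349). It was also called higher with 1 surrogate variable (0.032) and with the column number as a replicate block (0.042). Mbtps2 shares exon bases with Yy2 on the same strand. Erlin1 was at 31.3 ± 0.832 and 30.9 ± 1.09 CPM and Erlin2 at 43.0 ± 1.45 and 41.9 ± 1.45 CPM (SD, n = 4 each), and their ratio overlapped between groups (exact permutation p = 0.686, two-sided, and 0.83 adjusted).

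Over the 21 members not called, the 95% intervals ran from -0.16 to 0.19 on the log2 scale, so changes beyond a fall of 10.5% or a rise of 14.1% lie outside all of them. The members that rose had control levels from 17.6 to 206 CPM and the others from 25.4 to 534 CPM, so calls were not limited to the most deeply counted genes.

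Levels can be compared between genes only per length, here as CPM per kb of the principal GENCODE transcript. On that scale the controls were highest for Fdps (mean 194) and Hmgcs1 (148), followed by Lbr (112), Cyp51 (107) and Srebf2 (105), where the lowest of the 4 libraries were at 190.1, 139.8, 109, 104.5 and 104.4. Lbr and Cyp51, and Cyp51 and Srebf2, did not differ beyond the spread of their libraries. The lowest enzymes were Hsd17b7 (8.49 ± 0.377), Ggps1 (11.6 ± 0.226) and Tm7sf2 (11.9 ± 0.460), and Mbtps2, Erlin1, Insig2 and Erlin2 lay between 8.89 and 9.73 with neighbours overlapping. With merged exons of all transcripts as the length, Hmgcs1 was first and Fdps at rank 5, so the order depends on the transcript model.

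**Figure D4:**
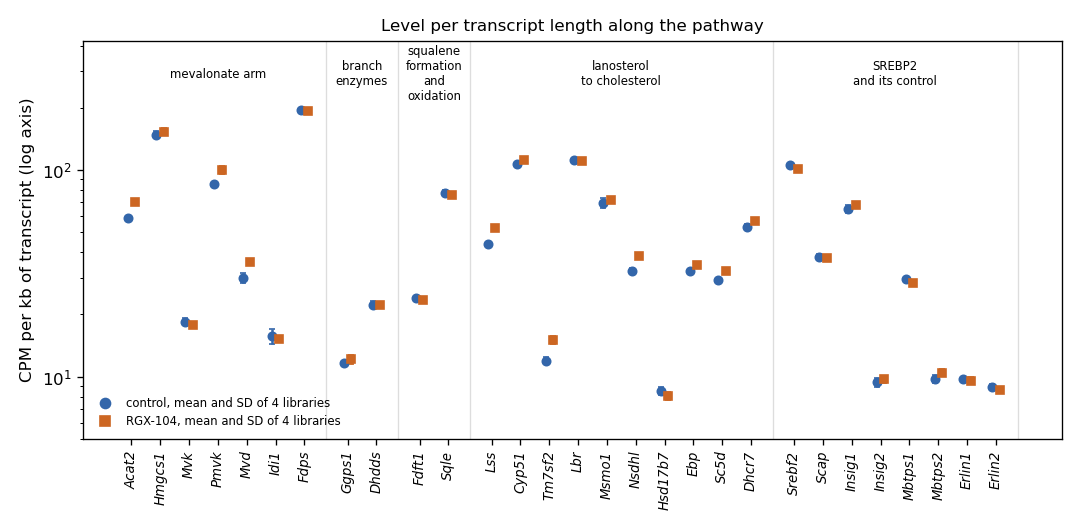
Level per transcript length (CPM per kb, log axis) of the 29 members in pathway order, as mean and SD of 4 control (circles) and 4 RGX-104 (squares) libraries. The levels span from 8.49 for Hsd17b7 to 194 for Fdps in control, a far wider range than any change with RGX-104.

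Among 62 further genes around the pathway, 55 were tested, of which 9 were higher and 4 lower, with a median log2 change of 0.02. Over all tested genes 4.82% were higher and 4.13% lower, and for isoprenoid users, redox partners and degradation partners, with at most 1 call in each direction, the counts are near that background and no result about the lists is read from them. Suppliers of its substrate included 2 that rose of 4 tested: Acss2, which makes acetyl-CoA from acetate, by 0.33 ± 0.04, and Aacs, which makes acetoacetyl-CoA, by 0.16 ± 0.03 (log2, SE; edgeR adjusted p = 5.05e-06 and 2.75e-04). Acly, the citrate lyase, and Acat1, the mitochondrial thiolase, did not pass (edgeR adjusted p = 0.147 and 0.408). Slc25a1 of the same list had 0 counts in every library and was not tested. The next list, like the others, was chosen with earlier results of these data known, and it includes Srebf1, given above as a known LXR target. Of 9 SREBP targets outside sterol synthesis 6 rose and 0 fell. They were the fatty acid desaturase genes Scd1 (log2 change 0.82 ± 0.03) and Fads2 (0.34 ± 0.03), the fatty acid synthase gene Fasn (0.56 ± 0.03), the elongase gene Elovl6 (0.13 ± 0.04), Lpin1 of glycerolipid synthesis (0.50 ± 0.05) and Srebf1 (0.77 ± 0.03). Stard4, a cholesterol carrier, Tmem97 and the fatty acid desaturase gene Fads1 did not pass. Their log2 changes were 0.09 ± 0.03, 0.01 ± 0.03 and 0.04 ± 0.03 (edgeR adjusted p = 0.0877, 0.932 and 0.403).

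Of 15 tested partners of SREBP processing and sterol-regulated degradation 1 rose and 1 fell. Ufd1 of the same list had at most 1 count in a library and was not tested. Rnf145, a sterol-responsive ubiquitin ligase of the endoplasmic reticulum, was at 176 to 179 CPM in the controls and at 194 to 202 CPM with RGX-104 (log2 change 0.16 ± 0.03, SE; edgeR adjusted p = 1.52e-04). Its treated libraries were all higher.

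Users of isoprenoids had 0 higher and 1 lower of 15 tested, the prenyltransferase subunit gene Pggt1b (log2 change -0.11 ± 0.03, edgeR adjusted p = 0.0264), and 0 were higher at an unadjusted p under 0.05 or by DESeq2 or limma-voom. Redox partners of the sterol enzymes had 0 higher and 1 lower of 7 tested, Pgrmc1 (-0.12 ± 0.04, edgeR adjusted p = 0.0290), whose groups overlapped. Among 5 tested genes of esterification and oxysterol synthesis Soat2, a cholesterol acyltransferase gene, fell (-0.16 ± 0.04, edgeR adjusted p = 0.0252) with overlapping groups, and Soat1 did not pass. The oxysterol-forming genes Ch25h, Cyp27a1 and Cyp46a1 had at most 8 counts in a library and were not tested. The number of genes around the pathway called lower was 1 without control replicate 3, or without RGX-104 replicate 1, 2 or 4, and 2 without control replicate 2.

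**Figure D5:**
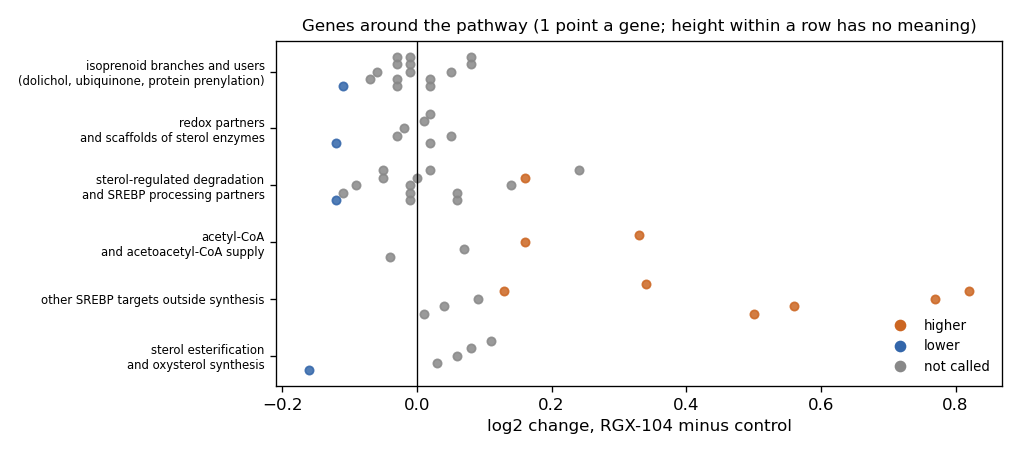
Log2 change (RGX-104 minus control, x axis) of the 55 tested genes around the pathway, 1 point a gene, by list. Orange marks the 9 called higher and blue the 4 called lower; the largest, up to 0.82, are SREBP targets outside sterol synthesis.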

How the data were processed

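Raw counts of reads for each gene, as the authors deposited them, were used for 8 libraries. Per the submitters' processing notes the tools were STAR 2.7.5 and cutadapt 2.10, with DESeq2 1.4 and R 4.1.0, on GRCm38. The sources used here do not give the counting step or its strand, so overlapping genes cannot be told apart by strand. Control columns matched numbered samples, whereas RGX-104 columns showed their group only and are numbered by column. Nothing says that samples were separate cultures, so p-values measure only how these libraries scatter, possibly for technical reasons. The closest libraries, RGX-104 replicates 2 and 3, differed beyond counting noise (chi-square per degree of freedom 1.36), so none were merged.

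Genes were kept by filterByExpr (minimum count 10, total 15; 13290 of 41730). The test was edgeR 4.0.16 (quasi-likelihood, robust, TMM, treatment as the only term) in R 4.3.3, with Benjamini-Hochberg adjustment over all tested genes and a threshold of 0.05. It was tested on simulated data. CPM are deposited counts over TMM-scaled totals. SE came from the F statistic. Alternatives used DESeq2 1.42.0, limma 3.58.1 and sva 3.50.0. Members and lists were chosen with earlier results of these data known, and the ratios after the values were seen. All members are reported; from each further list up to 4 called genes with the largest changes are named, and others named there were chosen after their values were seen. One called gene of these lists is counted but not reported here. A planned comparison of protein sequences was not run. Positions and promoters are from RefSeq GRCm38.p6, exons and transcripts from GENCODE M21.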

Additional observations from a re-analysis of the deposited data

Results flagged for a closer look

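In 68 sets of 4 libraries (29 members and 5 summed steps, in each group), 2 held a library far from the other 3, where chance gives about 3.4. Both were RGX-104 replicate 1. Insig1 was at 178 CPM there against 183.7 to 184 CPM in the other RGX-104 libraries, and Erlin1 at 32.6 CPM against 30.3 to 30.4 CPM. Neither gene was called with or without that library.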

How the results depend on the processing

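Over 17 alternative settings 7 of the 8 members that rose were called in every one, the exception being Dhcr7, and between 7 and 10 members were called higher and 0 lower. Of 493 alternative values of member changes 475 kept direction and side of the threshold, 10 gained a call, 4 lost it and 4 changed sign, all near 0: Fdps to 0.001 with 1 surrogate variable and 0.000 without RGX-104 replicate 1, and Dhdds to 0.017 and, without control replicate 4, 0.011. Without 1 library their values ran from -0.029 to 0.000 and from -0.037 to 0.011. The ratio differences of Erlin1 to Erlin2 (0.000 without control replicate 2 and -0.029 without RGX-104 replicate 1) and of Insig1 to Insig2 (-0.018 without RGX-104 replicate 3) also changed sign, with ranges of -0.029 to 0.051 and -0.018 to 0.042 without 1 library. At an adjusted p of 0.01, 344 genes were higher and 280 lower, with 0 lower around the pathway. Leaving out 1 library gave 462 to 719 genes higher, 377 to 621 lower and 1 to 4 lower around the pathway. With the column number as a replicate block 1109 genes were higher and 906 lower, and 10 members higher. Same-numbered libraries correlated at 0.043 to 0.157 in their deviations, and nothing in the labels pairs them. No scaling moved the median of all genes by more than 0.013 (log2). At this depth and with 4 libraries a group, the widest limits over the members not called were a fall of 10.5% and a rise of 14.1%, and most intervals were narrower.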
